A study of Mus musculus with 8 samples.

Results

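The genes described here encode the subunits of oxidative phosphorylation, the electron transport chain and ATP synthase of the mitochondrial inner membrane. Members were chosen by symbol: Ndufa (without the assembly factors Ndufaf), Ndufb, Ndufc, Ndufs, Ndufv, Uqcr, Cox4 to Cox8 and Atp5 genes, with Sdha, Sdhb, Sdhc, Sdhd, Cyc1 and Cycs. This gave 84 genes of the 18193 measured and 174 of 45037 probe sets. Complex I held 36 genes, complex II 4, complex III 9, complex IV 17 and complex V 17, and cytochrome c made up the remaining 1. The rule for membership is by symbol alone.

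Complex I takes electrons from NADH and complex II from succinate, and both pass them to coenzyme Q. Complex III hands them through cytochrome c to complex IV, which reduces oxygen, and complexes I, III and IV pump the protons whose return drives ATP synthesis by complex V. All members are nuclear genes whose proteins are imported, while mitochondrial DNA encodes further core subunits of complexes I, III, IV and V. Several complex IV subunits exist as a common isoform and as an isoform known from heart and muscle or from testis. In the brain, oxidative phosphorylation supplies most ATP, and maturing oligodendrocytes are known to use it while they build myelin.

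Mixed primary cultures of the cerebral hemispheres were set up from ICR embryos (mouse, 15 days old) and grown for 5 days in D-MEM with 10% FBS. Both groups were then passaged into serum-free medium for the enrichment of oligodendrocyte precursor cells, the progenitors of myelin-forming cells, and held for 48 hr at 37 °C or at the hypothermic 31.5 °C. Total RNA was read on 8 Affymetrix mouse arrays, 4 at each temperature. According to the labels 3 mice stand behind each group. Whether the 4 replicates are independent cultures is not stated, so the p-values below reflect the spread among these samples alone, which may be technical. Precision is limited by the small number of arrays. The comparison asks how expression differs between hypothermic and normothermic culture.

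Signals are deposited MAS5 intensities brought to a common trimmed mean. The log2 difference, given ± SE, takes 31.5 °C minus 37 °C, and the adjusted p is that of limma over 11525 genes, with a threshold of 0.05. Over all genes tested, arrays with the same replicate number deviated from their group means together, so differences within these pairs are also given. The main fit used temperature only and left the pairing out. The fit with the replicate number as a block is given where it changes a call. Before scaling, the trimmed means ran from 189 to 238 at 31.5 °C and from 132 to 248 at 37 °C. The 5 tested markers of myelinating oligodendrocytes were all lower at 31.5 °C, with a summed signal of the list of 8250 to 11965 against 16660 to 20761. Of the markers of the precursor lineage, 1 rose and 1 fell among 6. Of the 6 astrocyte and 8 microglial markers none passed in limma without the block (2 and 1 had an unadjusted p under 0.05), while 5 and 3 fell with it. Of the 8 neuronal markers 1 fell, and 4 did so with the block. The 5 markers of fibroblasts and pericytes gave 0 calls, 0 unadjusted p under 0.05 and 2 falls with the block. Of 5 endothelial markers only Kdr was bright enough to be tested, and it was lower with the block (adjusted p = 0.0365, and 0.550 without it). The summed astrocyte signal was 8462 to 15484 against 11002 to 20871, the microglial 4755 to 8551 against 5190 to 11413, and the neuronal 8385 to 11013 against 9191 to 13120. No marker of these lists was under the floor on all arrays, but Pecam1, an endothelial one, averaged below it (4.24 against 4.59). By the summed astrocyte, microglial and neuronal signals the cultures held RNA of several cell types. Fewer cells of a type and less RNA per cell cannot be told apart in such samples. The part of cell composition in the results below was not tested.

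Promoters are shown for 6 members, as the 250 bases before the RefSeq start (GRCm38.p6), 5′ to 3′ in the direction of the gene. Ndufv1 is the complex I gene that rose and Ndufb2 the one of smallest p among those that fell. Cox7a1 and Cox7a2 are the isoforms of 1 complex IV subunit. Cycs and Atp5h carry the NRF1 core, as do members that did not pass the threshold, such as Sdha and Uqcrc1. Of the members that passed, Ndufc1, Cox6b2 and Atp5e are not shown. Capitals mark a match, on either strand, to the core of NRF1 (GCGCANGCG), of ETS factors such as GABP (CCGGAAG), of YY1 (AAGATGGCG) or of the ERR receptors (AAGGTCA), factors known to act on respiratory genes.
Ndufv1, chr19:4012756-4013005 (reverse strand): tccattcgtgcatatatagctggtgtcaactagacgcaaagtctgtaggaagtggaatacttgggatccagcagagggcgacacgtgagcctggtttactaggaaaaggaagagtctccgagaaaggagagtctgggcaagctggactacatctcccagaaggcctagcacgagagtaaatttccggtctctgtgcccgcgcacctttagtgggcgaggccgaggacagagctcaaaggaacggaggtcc
Ndufb2, chr6:39592315-39592564 (forward strand): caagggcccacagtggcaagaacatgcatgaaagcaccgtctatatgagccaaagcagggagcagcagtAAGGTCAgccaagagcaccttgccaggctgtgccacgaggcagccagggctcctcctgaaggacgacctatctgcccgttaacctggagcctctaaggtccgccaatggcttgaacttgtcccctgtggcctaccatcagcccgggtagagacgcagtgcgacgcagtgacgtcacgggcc
Cycs, chr6:50566570-50566819 (reverse strand): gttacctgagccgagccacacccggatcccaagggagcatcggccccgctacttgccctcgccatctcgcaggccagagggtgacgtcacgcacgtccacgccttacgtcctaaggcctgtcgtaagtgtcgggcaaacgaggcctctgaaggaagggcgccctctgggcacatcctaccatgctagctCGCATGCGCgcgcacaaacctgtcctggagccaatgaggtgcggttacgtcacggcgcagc
Cox7a1, chr7:30183921-30184170 (forward strand): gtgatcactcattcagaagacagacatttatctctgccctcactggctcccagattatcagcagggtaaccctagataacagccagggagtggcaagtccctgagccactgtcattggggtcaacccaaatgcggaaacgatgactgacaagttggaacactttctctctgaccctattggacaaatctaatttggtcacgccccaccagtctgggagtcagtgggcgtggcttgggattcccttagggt
Cox7a2, chr9:79759854-79760103 (reverse strand): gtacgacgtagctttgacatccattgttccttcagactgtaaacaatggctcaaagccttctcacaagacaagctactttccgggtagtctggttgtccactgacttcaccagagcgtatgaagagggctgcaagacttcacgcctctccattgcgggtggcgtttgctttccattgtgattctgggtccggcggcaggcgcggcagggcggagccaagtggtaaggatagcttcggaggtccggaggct
Atp5h, chr11:115419920-115420169 (reverse strand): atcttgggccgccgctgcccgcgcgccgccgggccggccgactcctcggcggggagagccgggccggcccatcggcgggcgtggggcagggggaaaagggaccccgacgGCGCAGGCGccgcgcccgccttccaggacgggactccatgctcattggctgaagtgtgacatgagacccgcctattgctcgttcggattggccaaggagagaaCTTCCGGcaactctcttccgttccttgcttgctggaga

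Of the 84 members, 68 had a window in the RefSeq table, which runs from 250 bases before to 50 after the start. The NRF1 core was found in 27.9% of them, against 15.8% of tested genes with a window and 7.03% of all 27025 genes with one. A gene with more than 1 window was counted if any of them matched. The ETS core stood in 25%, 20.2% and 9.93% of the same sets, the YY1 core in 8.82%, 3.64% and 1.64%, and the ERR core in 11.8%, 3.64% and 5.38%. At least 1 of the NRF1, ETS and YY1 cores was in the windows of 35 members, or 51.5%, against 34.5% of tested genes and 16.5% of all. In Cycs the NRF1 core began 61 bases before the start, and in Atp5h it began 141 bases before it, with an ETS core at 38. The ERR core of Ndufb2 began 181 bases before the start. The windows of Ndufv1, Cox7a1 and Cox7a2 held none of the 4 motifs. By complex, 6 of 32 genes of complex I with a window held the NRF1 core. The same held for 2 of 3 of complex II, 2 of 5 of complex III, 1 of 12 of complex IV and 7 of 15 of complex V. A match describes the letters of a window, not binding.

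Respiratory chain transcripts as a whole differed little between the temperatures. Of the 84 members 79 were bright enough to be tested, and 6 of them were lower and 1 was higher at 31.5 °C. These are 7.59% and 1.27% of the members, beside 7.77% of all genes tested that were lower and 7.64% that were higher. With the replicate block 12 members were lower and 5 higher, 15.2% and 6.33%, beside 15.8% and 15% of all genes. The share lower is therefore near the background in both fits, and the share higher is below it. The differences were small: 60 of the 79 lay within 0.2 of 0 on the log2 scale, and the median absolute difference was 0.095 against 0.18 over all genes tested. The 95% interval lay within 0.5 of 0 for 66 members, or 83.5%, against 52.8% of all genes. The median mean signal was 3023 for the members and 315 for all genes tested, so the members were measured at brighter signals than most genes.

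The balance of signs depended on the scaling of the arrays. With the main scaling 31 members had a positive and 48 a negative difference, with a median of -0.033 against -0.0017 for all genes. Within the pairs of replicates 1 to 4 the members' median was -0.016, 0.060, -0.060 and -0.11, so it had no common sign. Scaling to a common median instead placed the median of all genes at 0.087 and that of the members at 0.056, with 53 positive. That scaling also changed the calls over all genes from 880 higher and 895 lower to 454 and 271, and left 0 members higher and 1 lower. Combined with the replicate block it gave 6 members higher and 6 lower, beside 2597 higher and 1158 lower over all 11524 genes tested. The even split of the members was thus not shared by all genes. Signals did not overlap between the temperatures for 13 members, 3 higher and 10 lower, or 16.5%, beside 22.2% of all genes. The difference had 1 sign in all 4 pairs for 33 members, 41.8%, beside 50.4% of all genes. Leaving out 1 array gave 2 to 5 lower members and 0 to 3 higher. The count of lower members was 2 without replicate 3 of either temperature, and the 3 higher came without replicate 4 at 31.5 °C.

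**Figure D1:**
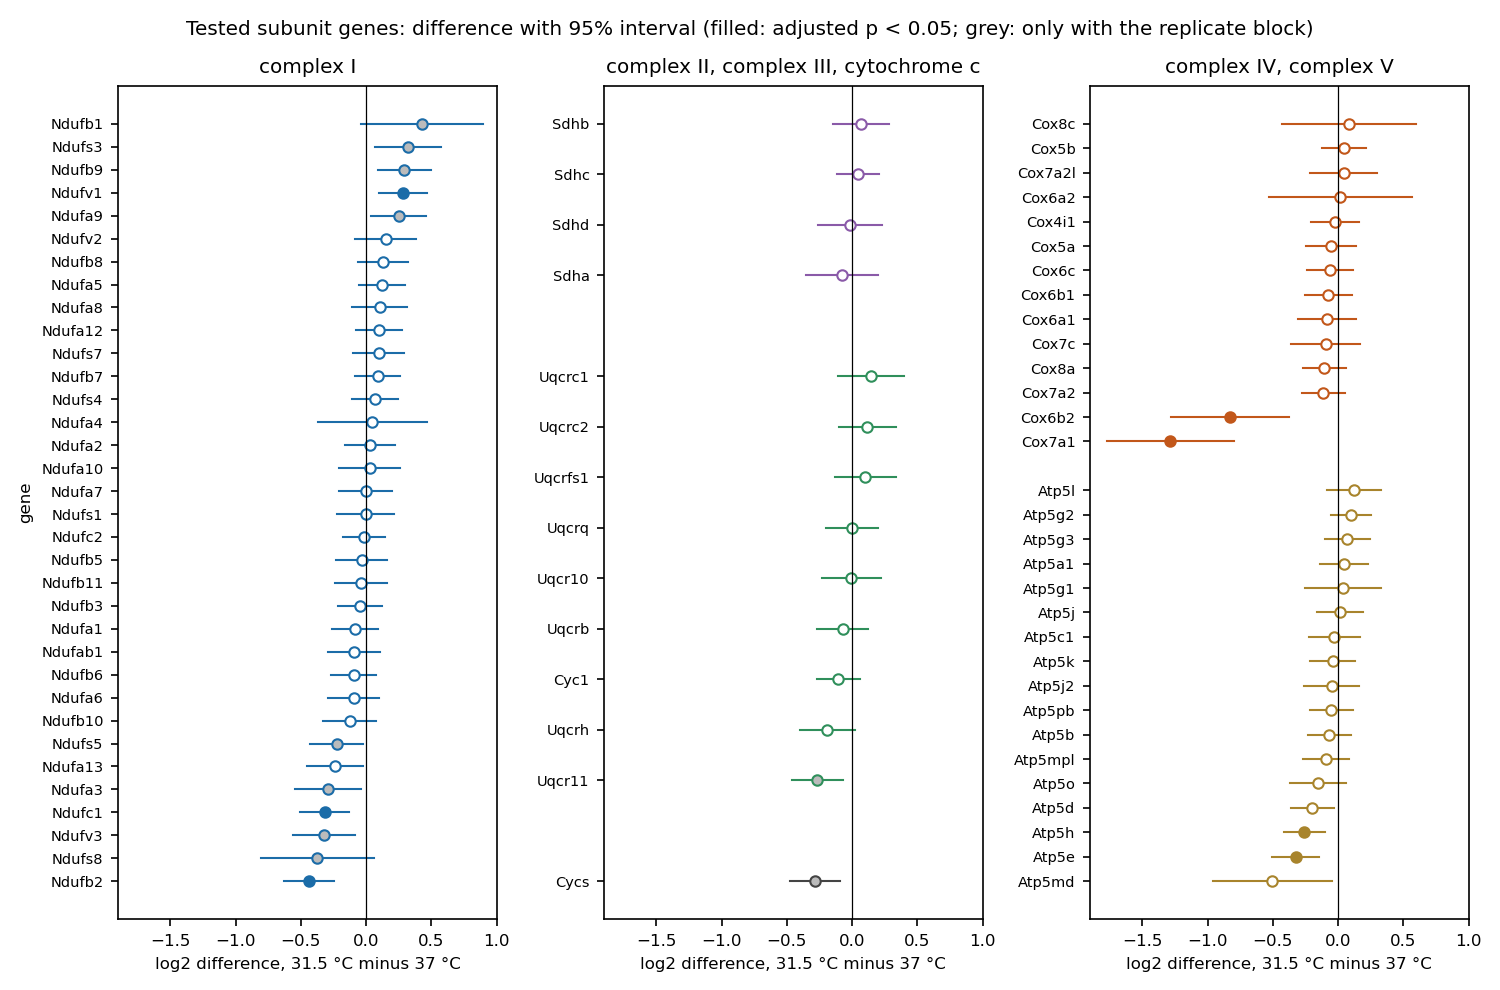
Log2 difference (31.5 °C minus 37 °C, horizontal axis) of each of the 79 tested members with its 95% interval, by complex; filled points passed at an adjusted p under 0.05, grey points only with the replicate block. Most intervals cross 0, and Cox7a1 at -1.29 and Cox6b2 at -0.83 lie apart from the other complex IV genes.

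Complex I held the only member that rose, and also 2 that fell. Ndufv1 encodes the core subunit that binds NADH and the flavin and so forms the entry of the chain. At 31.5 °C replicates 1 to 4 read 2057, 2085, 1932 and 1793, against 1707, 1542, 1551 and 1654 at the normal temperature. The groups did not overlap, and all 4 pairs were higher at 31.5 °C. The log2 difference was 0.28 ± 0.082, or 1.22-fold (limma adjusted p = 0.0474). Its other probe sets gave 0.25 ± 0.16 and 0.23 ± 0.16, neither past the threshold. The call ended without any 1 of 7 arrays (adjusted p up to 0.12) and held without replicate 4 at 31.5 °C. With median scaling the difference was 0.37 with an adjusted p of 0.156, and 0.0104 with median scaling and the block.

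Ndufb2, an accessory subunit of the membrane arm, fell by 0.44 ± 0.085 on the log2 scale (limma adjusted p = 0.0127). Its signal was 1674, 1629, 1434 and 1492 at 31.5 °C and 2045, 1985, 2274 and 2117 at 37 °C. Every array at 31.5 °C was below every array at 37 °C, and the mean was 1557 ± 113 (SD, n = 4) against 2105 ± 125. The call held without each single array (adjusted p up to 0.0417) and ended with median scaling (0.169) and with the mean of its probe sets (0.310), whose second set gave -0.34 ± 0.11. With median scaling and the block the limma adjusted p was 0.0210.

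Ndufc1, another accessory subunit of the membrane arm, had signals of 2688, 2725, 2653 and 2968 at 31.5 °C. At 37 °C they were 3268, 3284, 3390 and 3842, all above those at 31.5 °C. It fell by 0.32 ± 0.084 (limma adjusted p = 0.0355), and its second probe set gave -0.16 ± 0.087. The call ended without any 1 of 7 arrays (adjusted p up to 0.0976) and held without replicate 4 at 31.5 °C. The adjusted p was 0.270 with median scaling, and 0.0370 with median scaling and the block.

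With the replicate block 5 complex I genes were higher and 6 lower, 14.7% and 17.6% of those tested, which is near the 15% and 15.8% of all genes. The further names among them were chosen after their values were seen. Ndufs3, a core subunit of the matrix arm, gave 2740, 2811, 2621 and 2171 at 31.5 °C against 2311, 2081, 2060 and 1807. The groups overlapped, but every pair was higher at 31.5 °C, by 0.25 to 0.43, and the blocked adjusted p was 0.0153 (0.0845 without the block). Ndufb9, Ndufa9 and Ndufb1, accessory subunits, were higher in 4 of 4 pairs as well, with differences of 0.29, 0.25 and 0.42 and blocked adjusted p of 0.0325, 0.0265 and 0.0246. Without the block these were 0.0591, 0.107 and 0.199. Ndufb1 was the dimmest tested complex I gene, at 180 ± 24 against 137 ± 38.6.

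Ndufs8, a core iron-sulphur subunit, moved the other way from Ndufv1 and Ndufs3 by its brightest probe set. Its signal was 3132, 3124, 2734 and 2188 at 31.5 °C and 4927, 3586, 3531 and 2649 at 37 °C. The groups overlapped and each pair was lower at 31.5 °C, by 0.20 to 0.65, the largest in pair 1. The difference was -0.37 ± 0.19 with an adjusted p of 0.22, and 0.0255 with the block. The adjusted p was 0.0505 with median scaling and the block. Its other tested probe sets gave smaller differences of -0.16, -0.21, -0.16, -0.11 and 0.0042. None of them passed in the fit of single probe sets. Ndufv3, an accessory subunit of the matrix arm, Ndufa3 and Ndufs5, of the membrane arm, had differences of -0.32, -0.29 and -0.23. Their adjusted p was 0.0660, 0.114 and 0.125, and with the block 0.0182, 0.0249 and 0.0444. With median scaling and the block Ndufv3 passed (0.0370), while Ndufa3 (0.0621) and Ndufs5 (0.159) did not.

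Under the main scaling, the 2 arms of complex I differed in the sign most of their genes showed. In the matrix arm, which oxidises NADH, 9 of 14 tested genes had a positive difference, with a median of 0.080. In the membrane arm, which holds the proton pumps, 12 of 18 had a negative one, with a median of -0.044. With the block 3 matrix arm genes were higher and 2 lower, against 2 and 4 of the membrane arm. With median scaling 11 of 14 matrix arm genes and 11 of 18 membrane arm genes were positive, so most genes of both arms shared a sign. The medians were then 0.17 and 0.045, so the sign of the membrane arm's median changed while the order stayed. The 6 tested core subunits, Ndufv1, Ndufv2, Ndufs1, Ndufs3, Ndufs7 and Ndufs8, had a median of 0.12 and ran from -0.37 to 0.32. No test was made of the difference between arms. Ndufa4, named for complex I and known to bind complex IV, differed by 0.048 ± 0.18 (adjusted p = 0.892), with replicate 4 lowest at both temperatures.

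No gene of complex II passed in either limma fit, and 0 of 4 had an unadjusted p under 0.05. Sdhb, its iron-sulphur subunit, was 3662 ± 368 at 31.5 °C and 3487 ± 193 at 37 °C, a difference of 0.066 with a 95% interval of -0.15 to 0.28. Sdha, the flavoprotein that oxidises succinate, gave 2201, 2217, 2117 and 1604 against 2311, 2173, 2148 and 1896, and the groups overlapped. Its difference was -0.076 ± 0.12. A dimmer probe set of Sdha fell by 0.52 ± 0.096 in the fit of single probe sets (limma adjusted p = 0.0107), at 822 ± 71.3 against 1176 ± 87.0, so the probe sets of this gene disagreed. The anchors Sdhc and Sdhd differed by 0.042 and -0.014.

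In complex III no gene passed in limma without the block, and 1 of 9 had an unadjusted p under 0.05. Uqcr11, a small accessory subunit, was the nearest, with signals of 2558, 2792, 2392 and 2275 at 31.5 °C against 2908, 3164, 3073 and 2881. The groups did not overlap. The difference was -0.27 ± 0.087 with a limma adjusted p of 0.0708, and 0.0294 with the block. The adjusted p was 0.527 with median scaling, and 0.0870 with median scaling and the block. Uqcrh, the hinge protein, also did not overlap between groups, at 4000 ± 418 against 4541 ± 91.5, but its adjusted p was 0.20 and 0.119 with the block. All 5 accessory subunits had negative differences with the main scaling, from -0.27 to -0.0029, but 3 of them were positive with median scaling. By their brightest probe sets the core proteins Uqcrc1 and Uqcrc2 had positive differences of 0.14 and 0.12. The second probe set of Uqcrc2 gave -0.048 ± 0.092. Of the electron carrying subunits, Uqcrfs1, the Rieske iron-sulphur protein, differed by 0.10 and Cyc1, cytochrome c1, by -0.11.

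Cycs, the cytochrome c that shuttles electrons between complexes III and IV, lay at the threshold. Its signal was 3766, 3967, 4292 and 4410 at 31.5 °C and 4618, 5118, 5126 and 5132 at 37 °C. All arrays at 31.5 °C were below all at 37 °C, and every pair was lower by 0.22 to 0.37. The difference was -0.28 ± 0.083, a 1.22-fold lower level (limma adjusted p = 0.0503), and the blocked adjusted p was 0.0196. It was 0.0491 without replicate 4 at 31.5 °C and 0.374 with median scaling. With median scaling and the block it was 0.0930. Of its 2 other tested probe sets, one gave -0.34 ± 0.083 (adjusted p = 0.0294 among single probe sets) and the other -0.067 ± 0.097.

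**Figure D2:**
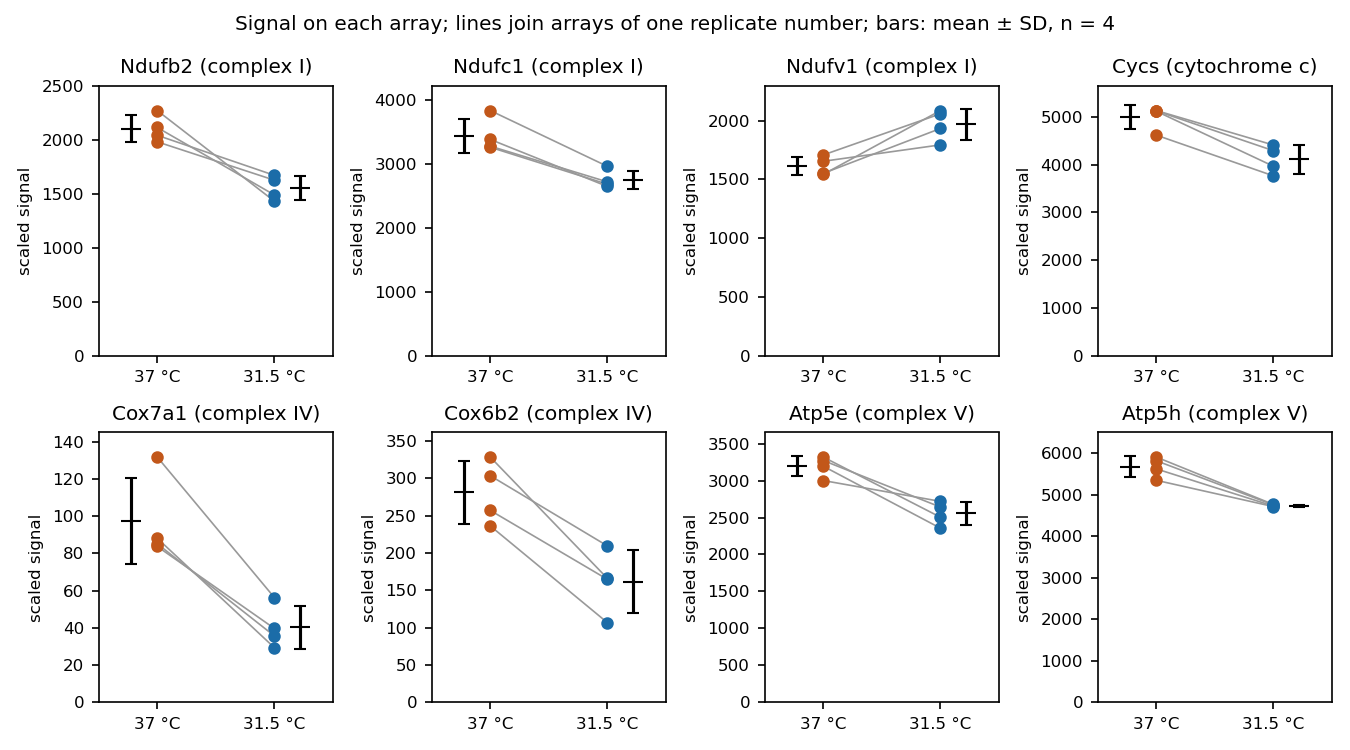
Scaled signal (vertical axis, from 0) of 8 genes on each array at 37 °C and 31.5 °C; lines join arrays of 1 replicate number and bars are mean ± SD (n = 4). Ndufv1 is higher at 31.5 °C in all 4 pairs, and the other 7 genes are lower in all 4.

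In complex IV, cytochrome c oxidase, 2 isoforms known from other tissues fell. Of the 9 common subunits 0 passed in limma or had an unadjusted p under 0.05 by their brightest probe set, but a second probe set of Cox6a1 fell. Cox7a1, the heart and muscle isoform of subunit 7a, had signals of 56.3, 29.4, 35.7 and 39.7 at 31.5 °C. At 37 °C they were 132, 88.1, 85.2 and 83.7, with replicate 1 highest at both temperatures. The groups did not overlap, and the fall of 1.29 ± 0.22 on the log2 scale was a 2.44-fold lower level (limma adjusted p = 0.00733). It had the largest absolute difference of the tested members and passed in all 25 alternatives that could test it (adjusted p up to 0.0260). Its mean of 40.3 ± 11.5 at 31.5 °C lay close to the filter of 36.3 on the mean signal, so this is a dim probe set. It was the only probe set of Cox7a1 that was tested.

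Cox6b2, the testis isoform of subunit 6b, gave 209, 165, 166 and 107 at 31.5 °C and 303, 257, 328 and 236 at 37 °C. The groups did not overlap, and the level was 1.77-fold lower, a fall of 0.83 ± 0.20 (limma adjusted p = 0.0268). The call ended without replicate 2 or 3 at 31.5 °C or without replicate 1, 2 or 3 at 37 °C (adjusted p up to 0.0635, differences of -0.87 to -0.75), and with median scaling (0.0968). With the replicate block the adjusted p was 0.00507, and 0.00473 with the block and median scaling.

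By their brightest probe sets the common isoforms of these subunits had smaller differences. Cox7a2 was 7302, 7865, 7295 and 7062 at 31.5 °C against 7665, 7804, 8076 and 8366, which overlap, and differed by -0.11 ± 0.074 (adjusted p = 0.340). Cox6b1, the common 6b subunit, differed by -0.075 ± 0.079. Second probe sets of some common subunits gave larger falls: that of Cox6a1, at 4182 ± 230 against 5122 ± 139, fell by 0.29 ± 0.078 (adjusted p = 0.0391, single probe sets). That of Cox6c differed by -0.24 ± 0.098 (adjusted p = 0.141), while those of Cox7a2 and Cox6b1 gave -0.13 and -0.12. The other tested probe sets of Cox5a gave -0.011 and -0.043, against -0.056 for its brightest. Those of Cox5b were all positive, at 0.025, 0.0076 and 0.080. The change of Cox7a2 minus that of Cox7a1 was 1.17 and positive in 4 of 4 pairs. Its exact two-sided permutation p was 0.0286, the smallest that 4 against 4 arrays can give, and 0.0857 after Benjamini-Hochberg adjustment over 6 isoform comparisons. The change of Cox6b1 minus that of Cox6b2 was 0.75, with the same exact p of 0.0286 and adjusted p of 0.0857, also in 4 of 4 pairs. Without each array in turn these ran from 1.0 to 1.35 and from 0.60 to 0.88. Neither difference therefore passed the adjusted threshold, which this family of comparisons could not reach with fewer than 4 results at the smallest p.

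Of the other tissue isoforms only Cox6a2 could be set against its common isoform. Cox6a2, the heart and muscle isoform of 6a, was 40.6 ± 8.79 against 41.1 ± 12.9, and the change of Cox6a1 minus that of Cox6a2 was -0.10 (exact permutation p = 0.714, n = 4 per group). Cox8c, a testis isoform, differed by 0.080 ± 0.23, with a 95% interval of -0.43 to 0.59. Cox4i2, Cox7b2 and Cox8b were below the filter and were not tested, as were Ndufa4l2 and the only probe set of Ndufb4 alone. Of the 9 common subunits 8 had a negative difference, with a median of -0.075 and a range of -0.11 to 0.044. With median scaling the median was 0.014, so its sign depended on the scaling. Cox7a2l, which joins complexes III and IV, differed by 0.042 ± 0.11. Cox7c was represented by a dim probe set at 71.1 ± 7.12 against 76.2 ± 9.86.

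In complex V, the ATP synthase, 2 genes fell. Atp5e, the epsilon subunit of the central stalk, had signals of 2641, 2718, 2504 and 2356 at 31.5 °C and 3271, 3000, 3318 and 3194 at 37 °C, without overlap. It fell by 0.32 ± 0.079 (limma adjusted p = 0.0281). The call held without replicate 2 of either temperature and ended without any other array (adjusted p up to 0.0784). The adjusted p was 0.362 with median scaling, and 0.0412 with median scaling and the block. Its probe set ends in _s_at, which marks probes that can match more than 1 transcript.

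Atp5h, the d subunit of the peripheral stalk, was 4712, 4723, 4753 and 4763 at 31.5 °C and 5345, 5620, 5816 and 5904 at 37 °C. The arrays at 31.5 °C lay close together, with an SD of 23.9 against 248, and all were below those at 37 °C. It fell by 0.26 ± 0.070 (limma adjusted p = 0.0384), and its second probe set gave -0.10 ± 0.083. The call held without replicate 1 at 37 °C and ended without any other array (adjusted p up to 0.0950). The adjusted p was 0.454 with median scaling, and 0.0998 with median scaling and the block.

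The other 15 tested genes of complex V did not pass in either fit. Atp5md, the small DAPIT subunit, had the largest difference, -0.50 ± 0.20, with signals of 1636, 1842, 1995 and 2673 against 3812, 2282, 2364 and 3156. The groups overlapped, and the drop of 1.22 in pair 1 exceeded those of 0.24 to 0.31 in the other pairs (adjusted p = 0.125). Atp5d, the delta subunit, did not overlap between groups and differed by -0.20 ± 0.073 (adjusted p = 0.100). The subunits Atp5a1 and Atp5b, which form the F1 head, differed by 0.044 and -0.067. The c ring genes Atp5g1, Atp5g2 and Atp5g3 encode the same mature protein and differed by 0.037, 0.097 and 0.070, and the changes among them did not pass (exact permutation p of 0.486 or more, n = 4 per group).

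**Figure D3:**
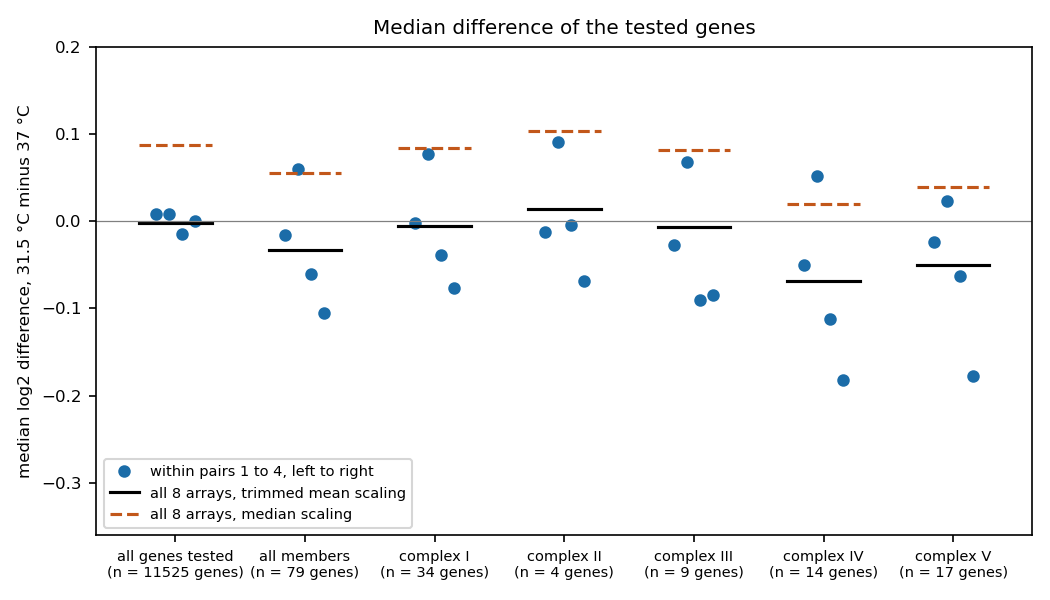
Median log2 difference (31.5 °C minus 37 °C, vertical axis) of the tested genes of each complex within each pair of arrays (points, pairs 1 to 4 from left to right) and over the 8 arrays with 2 scalings (lines). Pair 2 lies above 0 and pair 4 below 0 in each of the 5 complexes, and median scaling lifts each median above 0.

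Set side by side, the complexes had medians of -0.0050 (complex I), 0.014 (II), -0.0070 (III), -0.069 (IV) and -0.050 (V). Within pair 2 all 5 medians were positive, from 0.024 to 0.091, and within pair 4 all were negative, from -0.18 to -0.069. The spread between pairs thus exceeded the distance between complexes. The calls without the block were 3 of 34, 0 of 4, 0 of 9, 2 of 14 and 2 of 17, and with it 11, 0, 1, 2 and 2. Over all genes tested 7.64% were higher and 7.77% lower, and 15% and 15.8% with the block, so the count of complex I, the largest complex, is near the background with the block. Leaving out complex IV's tissue isoforms and Cox7a2l removed both of its calls. No difference between complexes was tested.

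**Figure D4:**
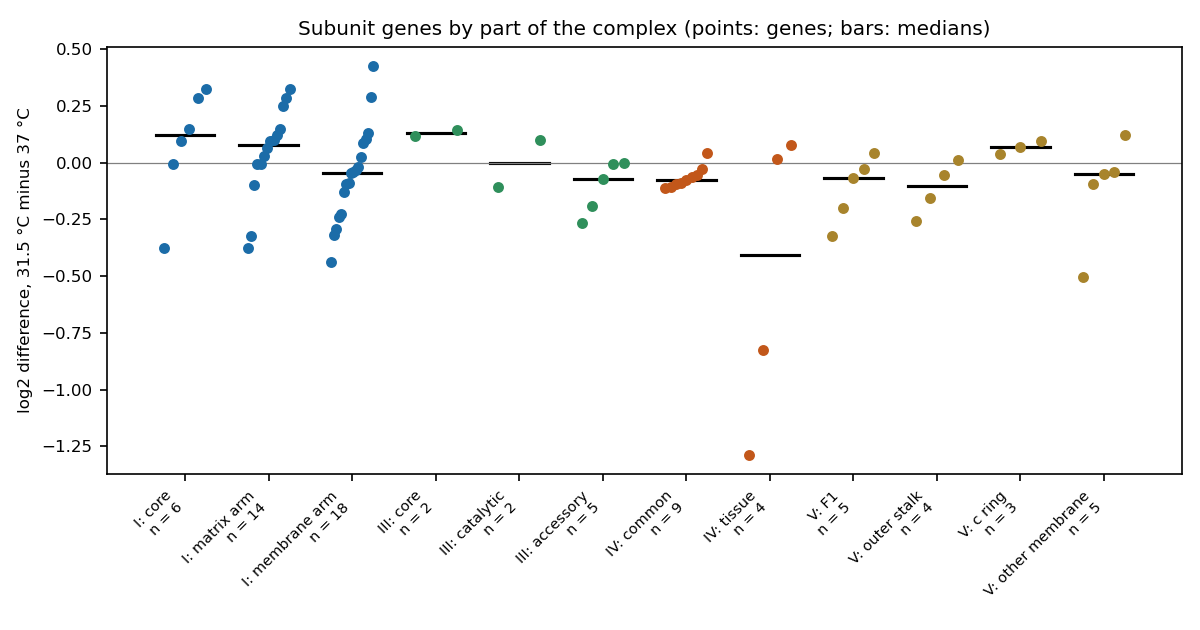
Log2 difference (31.5 °C minus 37 °C, vertical axis) of each tested gene (points) and the median (bars) by part of the complex; the core subunits of complex I are shown again within its matrix arm. The 2 low points among the tissue isoforms of complex IV are Cox7a1 and Cox6b2.

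Probe sets of the same gene mostly shared their direction. Of 43 members with more than 1 tested probe set, 10 had both signs, and 0 had calls in both directions. The dim second probe set of Ndufa10 fell by 0.86 (adjusted p = 0.00686, single probe sets), from 67.2 ± 9.66 to 37.0 ± 5.78, while the bright one differed by 0.026. A dim probe set of Ndufa3 rose by 0.52 (adjusted p = 0.0348), against -0.29 and -0.34 for its bright ones. A further 10 probe sets carried several symbols and were kept out of the counts. Among them, the 2 that match the Ndufb4 family differed by 0.20 and 0.23, positive in 4 of 4 pairs, with adjusted p of 0.135 and 0.119.

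Lists of genes that build or control the chain are read against the same shares of all genes, 7.64% higher and 7.77% lower, or 15% and 15.8% with the block. Of 15 tested assembly factors of complex I, 1 rose, Foxred1 (0.34 ± 0.089, limma adjusted p = 0.0353), and 3 rose and 3 fell with the block, 20% each way. Of 12 for complexes II, III and V, Sdhaf1 rose by 0.39 ± 0.11, and 2 fell, or 16.7%, with the same counts under the block. These were Bcs1l, the chaperone that places the Rieske protein in complex III, at -0.85 ± 0.13 (adjusted p = 0.00596, 169 ± 22.9 against 305 ± 41.2), and Sdhaf2, which adds the flavin to Sdha, at -0.38 ± 0.10. Bcs1l also passed with median scaling (0.0409), which ended the calls of Foxred1 (0.12), Sdhaf1 (0.137) and Sdhaf2 (0.307). Of 17 for complex IV, Coa3 fell by 0.56 ± 0.083 (adjusted p = 0.00511) and Coa6, a copper delivery factor, by 0.39 ± 0.081, or 11.8% lower. With the block Cox17 and Cox19 fell too (adjusted p of 0.0192 and 0.0422), or 23.5%. Median scaling ended the calls of Coa3 (0.0854) and Coa6 (0.202).

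Of 19 tested regulators of respiratory genes and mitochondrial DNA, 1 rose and 3 fell (5.26% and 15.8%), and 2 rose and 5 fell with the block (10.5% and 26.3%). These counts rest on few genes, and no test of the list was made. The coactivators Ppargc1a and Pprc1, of the PGC-1 family, fell by 0.52 ± 0.13 (limma adjusted p = 0.0332) and 0.35 ± 0.091 (0.0336). Polg, the mitochondrial DNA polymerase, fell by 0.27 ± 0.077, and Ssbp1, which binds single-stranded mitochondrial DNA, rose by 0.35 ± 0.093. Of these 4, none passed with median scaling (adjusted p of 0.0782 to 0.475). Of the genes encoded by mitochondrial DNA only ND5 was measured, at 3699 ± 294 against 4252 ± 953 (adjusted p = 0.473).

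Coq7, a hydroxylase of coenzyme Q synthesis, rose by 0.73 ± 0.12 (limma adjusted p = 0.00711), from 769 ± 85.2 to 1279 ± 171, and passed with median scaling (0.0232). Coq10b rose by 0.39 ± 0.096, and the other 16 of 18 genes for coenzyme Q and its other electron donors did not pass. With the block 4 rose and 1 fell, as Coq3 and Etfdh (adjusted p of 0.00476 and 0.0414) were higher and Coq5 (0.0458) was lower. Of 17 genes of the tricarboxylic acid cycle and pyruvate dehydrogenase only Sucla2, of succinyl-CoA synthetase, rose (0.27 ± 0.068, adjusted p = 0.0308), and 3 rose with the block. Of 20 import genes the channel genes Timm23 and Tomm40 rose by 0.30 ± 0.079 and 0.25 ± 0.073. With the block Gfer was higher and Tomm7 lower as well (adjusted p of 0.0346 and 0.0237). Median scaling ended the calls of Coq10b (0.101), Sucla2 (0.131), Timm23 (0.128) and Tomm40 (0.152). Neither of the 2 tested uncoupling proteins had an unadjusted p under 0.05.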

How the data were processed

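Expression was measured on 8 arrays, 4 per temperature. The authors deposited 1 intensity per probe set on a linear scale, computed by MAS5 per the submitters' processing notes. The target level is not given in the sources used here. Control probe sets (64) were left out. Arrays were scaled to a common 2% trimmed mean, values under the 25th percentile (9.80) were raised to it, and log2 was taken. Each gene was represented by its brightest probe set with 1 symbol, and the 11525 genes with a mean signal of at least 36.3 were tested with limma 3.58.1 in R 4.3.3 (temperature only, two-sided, Benjamini-Hochberg), a procedure tested on simulated data. No count of reads underlies these values.

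Whether replicate numbers pair the arrays was checked by correlating the arrays' deviations from the group means over genes. Over all genes tested the correlations were 0.541, 0.422, 0.497 and 0.614 for same numbers, and at most 0.0566 for different ones. Over the 79 tested members they were 0.321, 0.649, 0.350 and 0.622, and up to 0.389 for different numbers. The members alone therefore did not fully separate same from different numbers. The pairing comes from the titles' numbers and the check over all genes.

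Named genes are the members past the threshold, the 3 of smallest p per complex, isoform pairs and up to 2 genes per pathway list; other named members, and the list genes Sdhaf1, Polg, Ssbp1 and those named only with the block, were chosen after their values were seen. The members and lists were chosen with earlier results of these data known. Alternatives were scaling, floor, filter, probe set choice, intensity trend, array weights, the block and leaving out arrays. Actin control probe sets gave 3′/5′ ratios of 1.21 ± 0.0415 (31.5 °C) and 1.24 ± 0.0431 (37 °C; SD, n = 4; exact permutation p = 0.429). Figures were drawn with matplotlib 3.10.9.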

Additional observations from a re-analysis of the deposited data

Results flagged for a closer look

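In 7 groups of 4 arrays of the named members 1 array stood apart from the other 3 by Dixon's test at its 95% critical value, which chance passes in about 1 in 20 groups. The value is the gap to the nearest other array as a share of the group's range. At 37 °C these were Cycs (0.974 of the range, replicate 1 at 4618 below 5118 to 5132), Ndufa4 (0.969, replicate 4 at 3497 below 4889 to 4942) and Cox7a1 (0.888, replicate 1 above the others). Also at 37 °C were Uqcrh (0.881, replicate 3 at 4677 above 4487 to 4509) and Ndufs5 (0.874, replicate 1 at 2314 below 2715 to 2778). At 31.5 °C they were Cox4i1, the common isoform of subunit 4 (0.893, replicate 4 at 6837 below 7147 to 7185), and Sdha (0.857, replicate 4 at 1604 below 2117 to 2217). Replicate 4 was also the lowest array of Ndufa4 at 31.5 °C, at 3311.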

How the results depend on the processing

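Main counts were 1775 genes called, 6 members lower and 1 higher, and 3, 0, 0, 2 and 2 calls in complexes I to V. Over all genes the count was 725 with median scaling, 2788 probe sets with all tested singly, 3548 with the replicate block, 3755 with the block and median scaling, 3471 with the block and quantile normalization, and 872 to 1591 without 1 array. Lower members were 1 with median scaling, 10 with an intensity trend, 12 with the block (12 also with quantile normalization) and 3 with the block and without pair 3. Higher members were 0 with median scaling, with the mean of probe sets and, by each gene's brightest probe set, with all probe sets singly. Over all 145 tested probe sets of members that last fit gave 2 higher, of Ndufb9 and Ndufa3, and 10 lower. They were 2 with the filter at the 70th percentile and without _x_at and _s_at probe sets, and 3 with a trend or array weights. They were 5 with the block, 6 with the block and median scaling, 5 with the block and quantile normalization, and 0 or 3 with the block and without pair 2 or pair 4. Without 1 array 2 to 5 were lower and 0 to 3 higher. Complex I had 0 calls with median scaling, 5 with the higher filter or array weights, 6 with a trend, 11 with the block (11 with quantile normalization, 9 with median scaling, 5 without pair 2 or pair 4), and 1 to 5 without 1 array. Complex III had 1 with quantile normalization, the higher filter, a trend or the block. Cycs was called (1 of 1) without a filter, with the higher filter, with the floor at the 50th percentile, the mean of probe sets, a trend, weights, the block, the block with quantile normalization and the block without pair 4, and in 0 to 1 fits without an array. Complex IV had 1 call with median scaling, no filter or the higher filter, 1 to 2 without 1 array, and 0 without its tissue isoforms and Cox7a2l. Complex V had 0 with median scaling, 1 with the mean of probe sets, all probe sets singly or the block and median scaling, 0 or 1 with the block and without a pair, and 0 to 1 without 1 array. With median scaling, with or without the block, the median difference was 0.056 over the members, 0.084 in complex I, 0.082 in III, 0.020 in IV and 0.039 in V. It was -0.11 in complex III with the mean of probe sets and -0.13 in complex IV with the block and without pair 2. The cause was not tested. The sign turned for some named members that were not called. With median scaling these were Sdha (0.013), Cox6b1 (0.014), Cox6a1 (0.0015) and Cox4i1 (0.063), the same with the block. Without 1 array they were Ndufa4 (-0.075 to 0.21 over the fits), Sdha (0.034), Cox4i1 (0.018), Cox6a2 (-0.18 to 0.17) and Atp5g1 (-0.036 to 0.13). With the block and without a pair they were Ndufa4 (-0.0037), Cox6a1 (0.0029), Cox4i1 (0.035) and Cox6a2 (-0.13 and -0.17). Cox6a2 also turned with the floor at the 50th percentile (-0.071) and with array weights (-0.032), and Atp5g1 with the mean of probe sets (-0.30). The isoform differences of Cox6a (-0.27 to 0.080) and of Atp5g1 (-0.13 to 0.026), Atp5g2 (-0.0015 to 0.072) and Atp5g3 (-0.047 to 0.056) turned without single arrays, an alternative chosen after seeing the data. Cox7a1 kept its direction and its side of the threshold in its 25 alternatives. Apart from the counts and members named here and in the report, the replicate block changed no call among the named members. Dim probe sets such as those of Cox7a1, Cox6a2, Cox7c and Cox8c limit what small differences can be seen.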
